A study of Mus musculus with 6 samples.

Results

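The 44 genes described here are interferon-stimulated genes of the mouse, together with the interferon-inducible GTPases of the GBP and IRG families. They were chosen by name, and each gene was read from the probe set that names it alone and has the highest mean over all 6 arrays. Of the 44, 34 had such a probe set among the 12393 genes tested, and they had 46 probe sets in all. The 10 without one were Isg15, Oas1g, Ddx58, Samd9l, Xaf1, Ly6e, Ifi44, Ifi203, Ifi205 and Tgtp1, and their levels were not analysed here.

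RNA came from CD11c+ spleen cells, taken by magnetic sorting from untreated C57BL/6J mice 8 weeks old, and was read on Affymetrix arrays. There were 3 arrays from mice with a hypomorphic Atg16L1 genotype, in which the function of the gene is reduced, and 3 from wild-type mice. The labels do not state how the hypomorphic allele was made, whether animals were pooled or whether the arrays of a genotype come from separate mice. The p-values therefore refer to the spread between arrays, part of which may be technical. The question set by the design is how the genotypes differ in the absence of infection or any treatment.

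Interferons are cytokines that bind surface receptors and switch on a large set of genes through JAK kinases and STAT and IRF factors. Type I interferons act mainly at a promoter element called the ISRE, and interferon gamma at the GAS element. The induced proteins sense viral RNA, degrade it or block its translation, and the GBP and IRG GTPases attack the vacuoles in which bacteria and parasites live. ATG16L1 directs the conjugation of LC3 and its relatives to membranes during autophagy, and in mouse cells that machinery is needed to bring IRG and GBP proteins to such vacuoles.

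The promoters show how these elements lie in the genes described. An ISRE core (GAAA, any 2 bases, GAAA) and a GAS core (TTC, any 3 bases, GAA) were searched on both strands in RefSeq windows (GRCm38.p6) from 250 bases before to 50 after each transcript start, with overlapping matches counted. An ISRE core was present for 21 of the 32 genes with a window, and for 3.99% of all 27025 genes. A GAS core was present for 9 of the 32 and for 9.55% of all genes. No window was found for Usp18, Mx1, Mx2, Oas2, Dhx58, Zbp1, Parp14, Rtp4, Ly6e, Ifi27l2a, Ifi204 and Iigp1. A match is a string of letters and no proof of a binding site.

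The 160 bases before the start are printed for 6 genes, a pair of each of the IFIT, GBP and IRG families, 5′ to 3′ on the strand of the gene, with the ISRE and GAS cores in capitals; an ISRE core on the other strand reads TTTC, any 2 bases, TTTC. Ifit3 and Gbp2 are shown because they rose, beside their family neighbours Ifit1 and Gbp3, which did not pass. Irgm2 and Igtp are shown because they carry both elements. Whether the changes of neighbours differ was not tested, and Gbp3 lay close to the threshold (limma adjusted p = 0.0702).
Ifit3 (chr19:34583369-34583528, plus strand): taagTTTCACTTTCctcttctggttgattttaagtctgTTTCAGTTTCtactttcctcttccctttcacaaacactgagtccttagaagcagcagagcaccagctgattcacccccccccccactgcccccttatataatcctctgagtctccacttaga
Ifit1 (chr19:34640729-34640888, plus strand): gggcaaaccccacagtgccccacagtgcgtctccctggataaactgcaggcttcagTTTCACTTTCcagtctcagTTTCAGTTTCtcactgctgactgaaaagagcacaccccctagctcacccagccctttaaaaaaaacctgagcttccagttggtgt
Gbp2 (chr3:142620503-142620662, plus strand): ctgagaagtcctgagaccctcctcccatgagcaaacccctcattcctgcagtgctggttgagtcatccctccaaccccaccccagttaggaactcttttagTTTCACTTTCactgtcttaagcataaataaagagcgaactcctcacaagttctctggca
Gbp3 (chr3:142559884-142560043, plus strand): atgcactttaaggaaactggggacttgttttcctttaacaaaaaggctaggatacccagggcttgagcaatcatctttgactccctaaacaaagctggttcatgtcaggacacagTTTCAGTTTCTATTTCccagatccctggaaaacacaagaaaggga
Irgm2 (chr11:58214817-58214976, plus strand): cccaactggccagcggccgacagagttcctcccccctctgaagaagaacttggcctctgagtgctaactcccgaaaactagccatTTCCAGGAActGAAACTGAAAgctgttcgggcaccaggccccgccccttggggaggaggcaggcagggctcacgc
Igtp (chr11:58199396-58199555, plus strand): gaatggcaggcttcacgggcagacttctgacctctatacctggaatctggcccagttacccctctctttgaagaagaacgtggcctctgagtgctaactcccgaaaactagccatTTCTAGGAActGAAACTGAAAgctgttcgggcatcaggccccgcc

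In Ifit3 and Ifit1 the core lay in 2 copies, with first bases at positions -156 and -122 from the start of Ifit3, and at -104 and -85 from that of Ifit1. Gbp2 had 1 copy, at -59, and Gbp3 had 2 overlapping copies, at -45 and -39. In Irgm2 and Igtp a GAS core was followed by an ISRE core with 2 bases between them, and the unmeasured IRG gene Tgtp1 had the same arrangement, its GAS core at -88 and its ISRE core at -77. Genes that did and did not pass the test both carried the core: Ifih1 had it at position 32, Rsad2 at -120 and Stat2 at -222. None was found in the windows of the measured genes Ifit2, Oasl1, Oasl2, Irf7, Isg20, Cmpk2, Ifi35 and Ifi47.

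**Figure D1:**
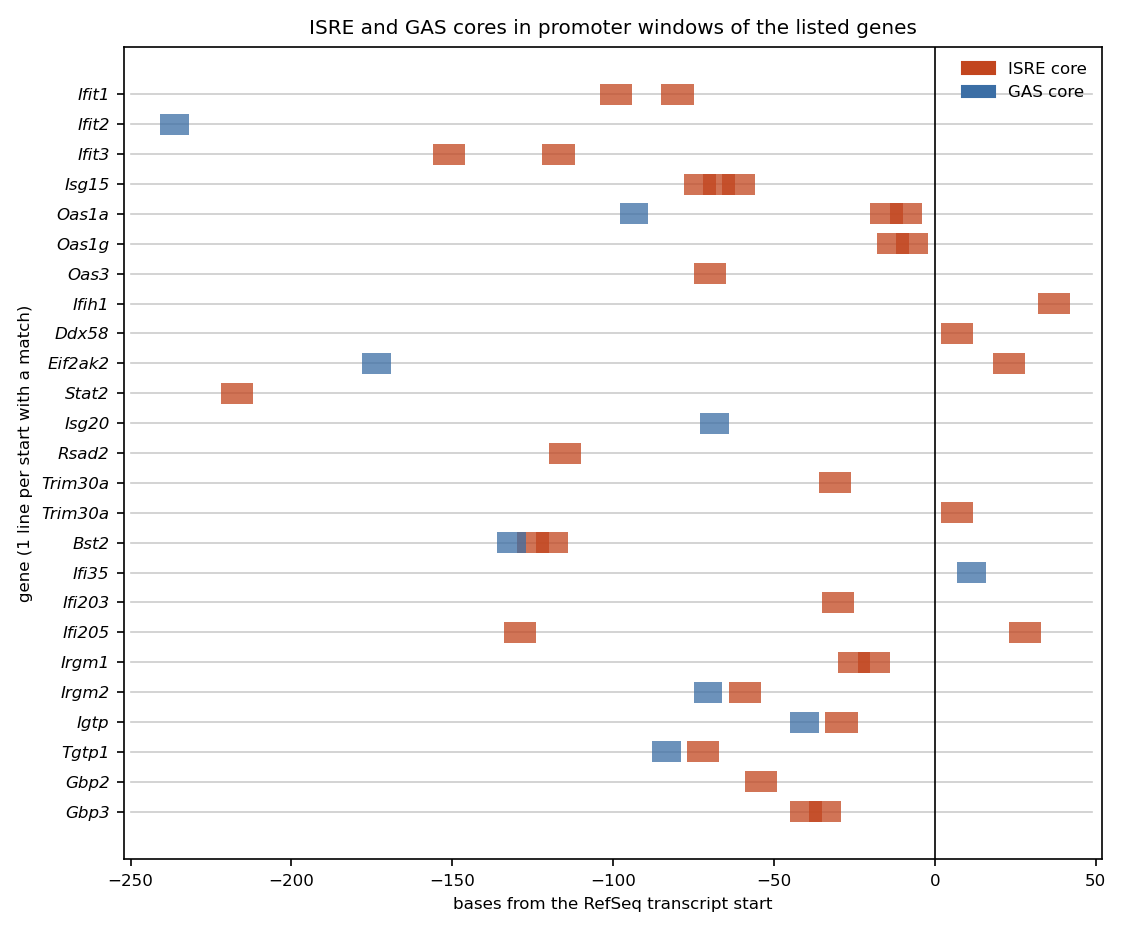
Positions of ISRE and GAS cores in the promoter windows of the genes that hold at least 1, as bases from the RefSeq transcript start. Each grey line is 1 start with a match, and starts without a match are not drawn. Red bars mark ISRE cores and blue bars GAS cores, darker where matches overlap; Irgm2, Igtp and Tgtp1 share a GAS core placed 2 bases before an ISRE core.

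The arrays themselves differed between the genotypes before any interferon gene is considered. Atg16l1 was at 6.13, 5.84 and 6.11 in the hypomorph arrays, against 7.05, 7.11 and 7.04 in wild type (log2 values; limma adjusted p = 0.00163). Of 18 measured macrophage markers 17 rose with limma, and their summed linear signal was 58937 to 63187 in the hypomorph arrays and 15314 to 23200 in wild type. Arrays give no value of 0. The brightest of them, Csf1r, was at 13.30, 13.31 and 13.38 in the hypomorph and at 12.08, 12.40 and 12.17 in wild type; the dimmest, Siglec1, had a change of 0.11 and did not pass. Of 9 B cell markers 5 fell, with a summed signal of 4457 to 6005 in the hypomorph and 6344 to 8598 in wild type. Of the other lists, 4 of 8 plasmacytoid dendritic cell markers rose and 1 fell, and 2 of 9 neutrophil markers rose and 1 fell. Of monocyte markers 1 of 6 rose, as did 2 of 7 cDC1 and 2 of 7 cDC2 markers. Of T cell markers 1 of 6 rose, and of erythroid markers 1 of 4. The T cell marker that rose was Ccr7, with a log2 change of 1.40, and the median change of the 6 was -0.30. Of 8 NK cell markers 0 met the limma threshold (1 had an unadjusted p below 0.05). Over all genes tested 9.76% rose and 8.47% fell. The mean signal of 24 poly-A spike-in probe sets, RNAs added before labelling, had a log2 value of 7.58 to 7.90 in the hypomorph and 8.95 to 9.96 in wild type. The 18 hybridization control probe sets, for material added after labelling, differed in the same direction, at 10.29 to 10.40 in the hypomorph and 11.08 to 11.65 in wild type. Of 7 conventional dendritic cell markers 3 fell, namely Itgax, which encodes CD11c, Zbtb46 and Ciita. Itgax was nevertheless bright on every array, at 9.87 to 10.01 in the hypomorph and 10.20 to 10.45 in wild type. These values move with every comparison between the genotypes given here, and their part in the results was not tested. In such bulk samples a change in the number of cells of a type and a change in RNA per cell cannot be told apart.

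Between the genotypes, 4 of the 34 genes rose and 0 fell with limma at a Benjamini-Hochberg adjusted p under 0.05. They were Ifi204, Gbp2, Ifit3 and Ifih1. Of all genes tested 9.76% rose and 8.47% fell, so the count that rose is near the background and is not a result about the list. At an unadjusted p under 0.05, 9 of the 34 were higher and 1 was lower, against 15.6% and 18.4% of all genes. The 3 hypomorph arrays lay above all 3 wild-type arrays for 7 of the 34 genes and for 18.5% of all genes. They lay below all wild-type arrays for 1 of the 34, Stat2, and for 22.5% of all genes. The log2 change, hypomorph minus wild type, was above 0 for 28 of the 34, and for 41.0% of all genes, and its median was 0.25 in the list and -0.05 over all genes. The changes ran from -0.46 for Mx1 to 1.94 for Ifi204, as the plot of changes shows.

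**Figure D2:**
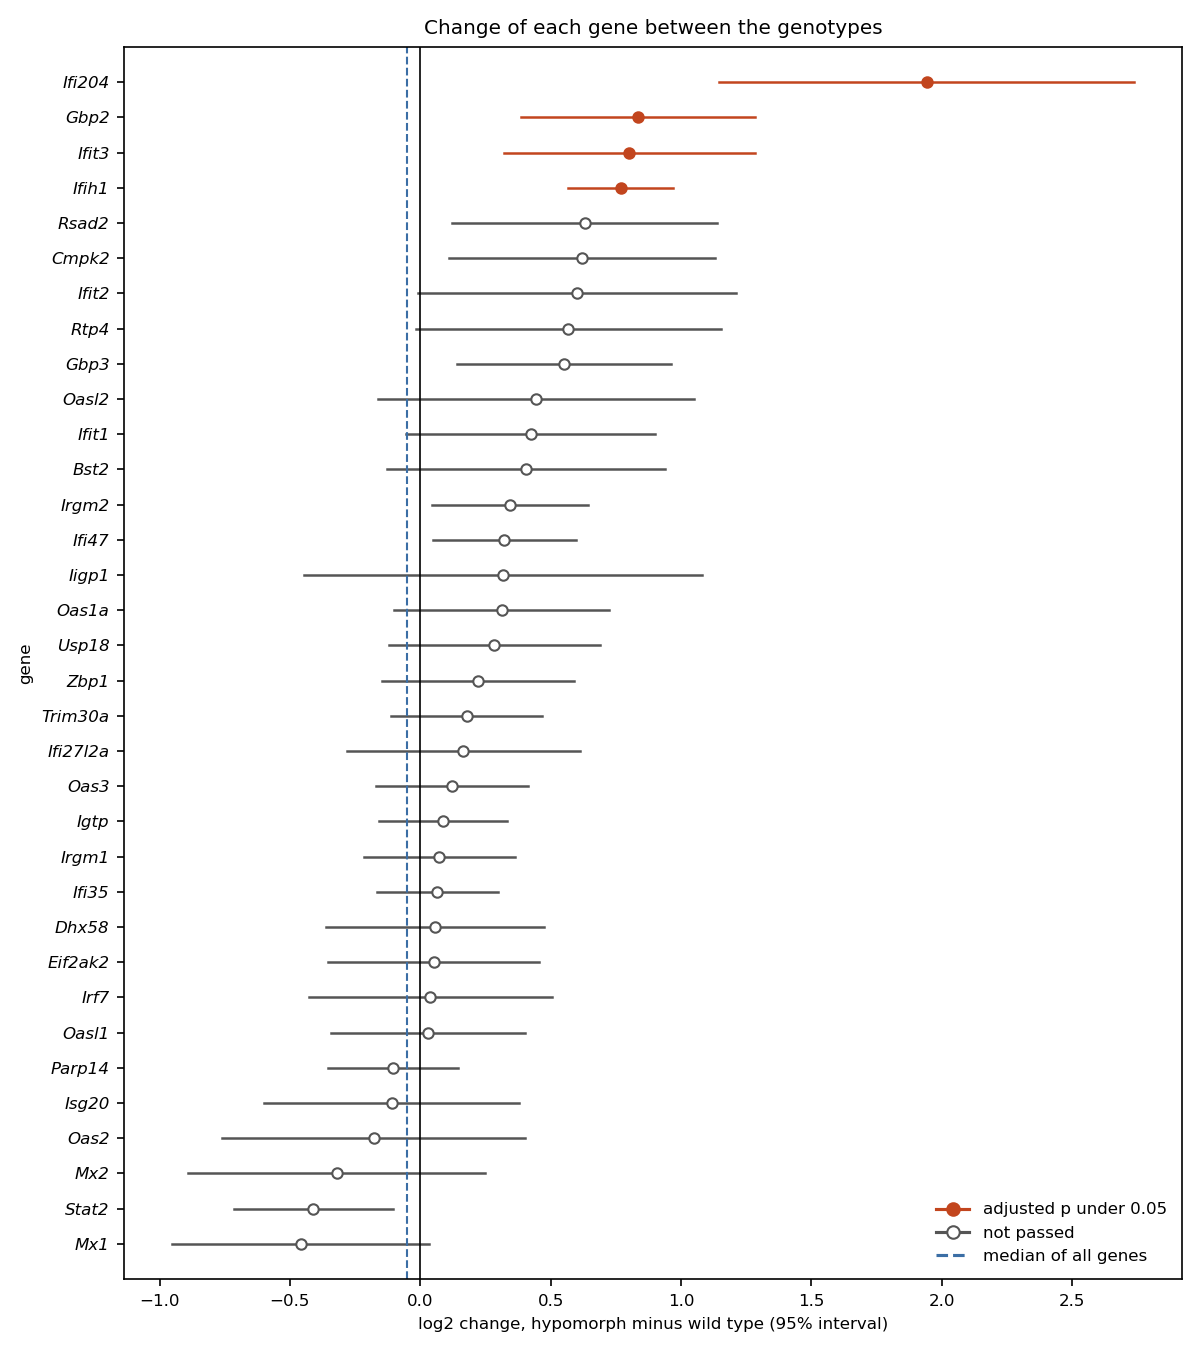
Log2 change of each of the 34 genes, hypomorph minus wild type, with its 95% interval from limma. Filled red points passed an adjusted p under 0.05 (Ifi204, Gbp2, Ifit3 and Ifih1), open points did not, and the dashed line is the median of all genes, -0.05.

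The hypomorph arrays were not alike for these genes. Hypomorph replicate 1 was the lowest of the 3 hypomorph arrays for 32 of the 34 genes, a place it held for 32.1% of all genes. Replicates 2 and 3 both lay above all wild-type arrays for 19 of the 34 and for 20.9% of all genes. Replicate 1 lay above all wild-type arrays for 23.5% of the 34 and 27.9% of all genes, and below the wild-type mean for 61.8% and 57.8%, both shares near the background. Relative to the wild-type mean of each gene, the median of the 34 genes was -0.05 in hypomorph replicate 1, 0.33 in replicate 2 and 0.40 in replicate 3, against 0.12, -0.02 and -0.11 in wild-type replicates 1, 2 and 3. Over all genes those medians lay between -0.05 and 0.02. The range of the 3 hypomorph arrays had a median of 0.55 over the 34 genes and 0.17 over all genes, and that of the wild-type arrays 0.40 and 0.27.

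Wild-type replicate 1 stood at the other end of its group. It was the highest wild-type array for 25 of the 34 genes and for 42.0% of all genes. It was the lowest for 6, namely Oas3, Oasl1, Oasl2, Ifi204, Gbp2 and Gbp3. The macrophage markers differed far less among the hypomorph arrays. Their median relative to wild type was 1.73, 1.77 and 1.82 in hypomorph replicates 1, 2 and 3, and -0.40, 0.30 and 0.13 in the wild-type replicates. The summed signal of the macrophage markers was 60195, 58937 and 63187 in hypomorph replicates 1, 2 and 3, lowest in replicate 2, so they gave no single order either. The plasmacytoid dendritic cell markers, for the cells known as the main makers of type I interferon, had medians of 0.56, 0.27 and 0.20 in the hypomorph replicates and 0.08, -0.07 and -0.04 in the wild-type ones. Their summed signal ordered the hypomorph arrays otherwise, at 5192, 5468 and 5283, against 5229, 4886 and 4845 in wild type, so these markers gave no single order of the hypomorph arrays. The labels name no batch. The long number in the title of wild-type replicate 1 differs from that in the other titles, and the labels do not say what it marks. The title of wild-type replicate 3 gives another array name than the other titles.

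**Figure D3:**
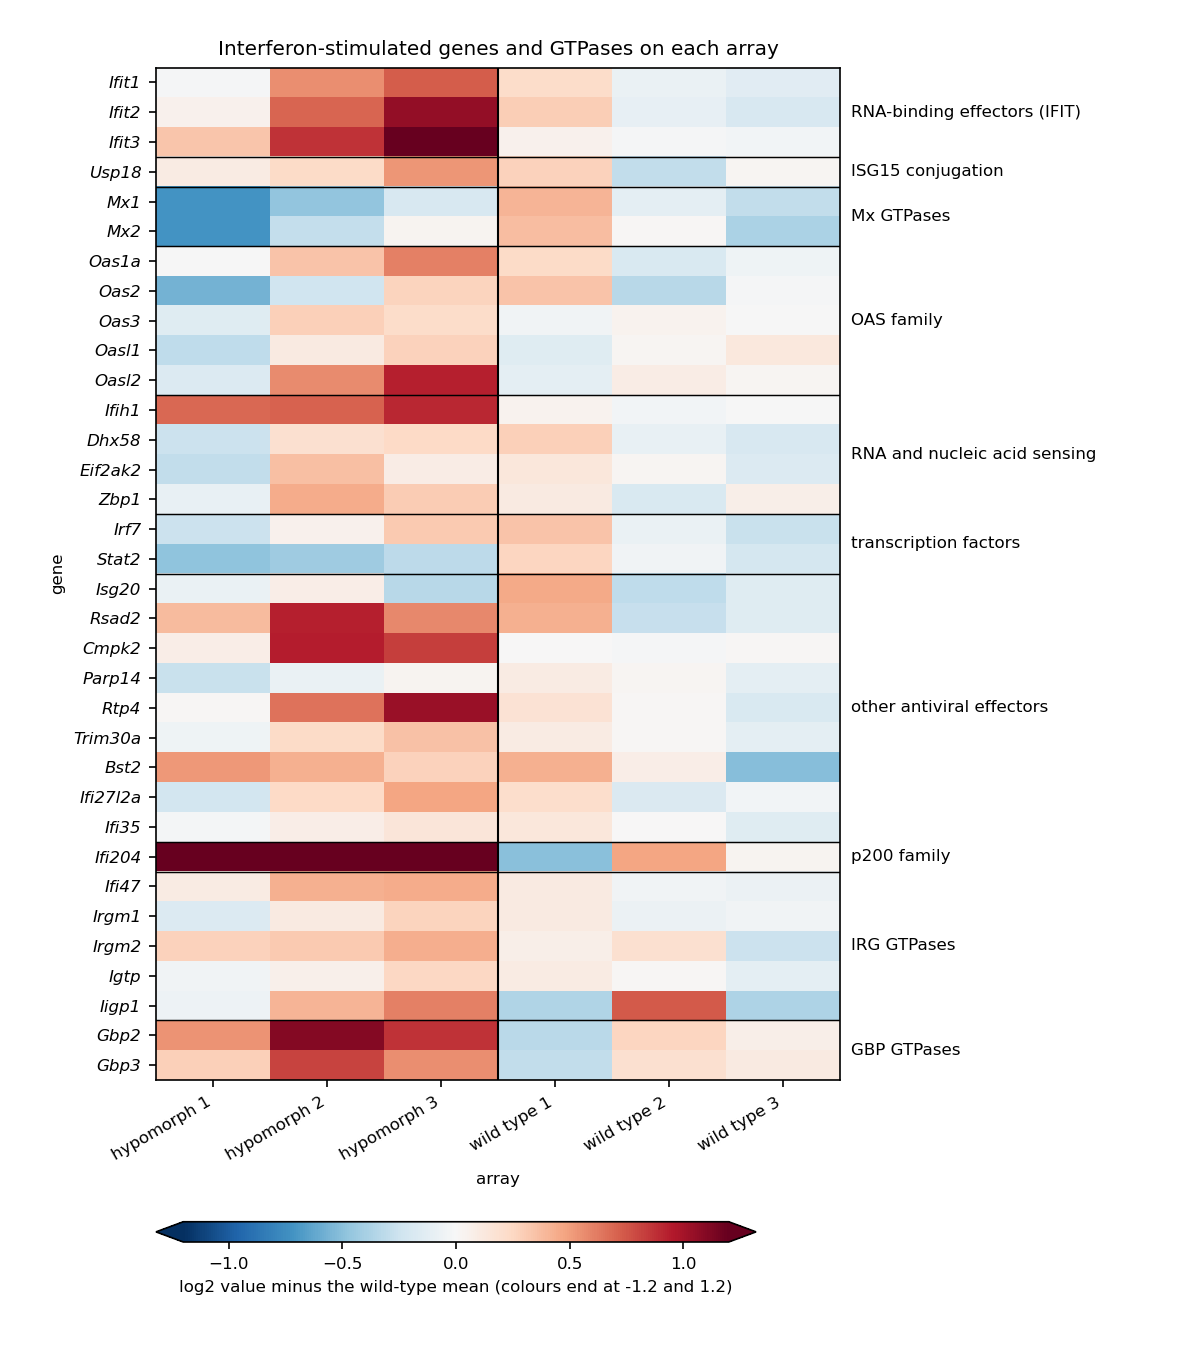
Heat map of the log2 value of each of the 34 genes on each array minus its wild-type mean, hypomorph arrays left of the vertical line and wild-type arrays right of it, with role groups split by horizontal lines. Differences past the ends of the colour bar share its end colour. The value of hypomorph replicate 1 is lower than those of replicates 2 and 3 in 32 rows. In the row of Ifi204, which is 1 of them, all 3 hypomorph arrays share the end colour. Ifi204 and Ifih1 are high in all 3 hypomorph arrays.

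**Figure D4:**
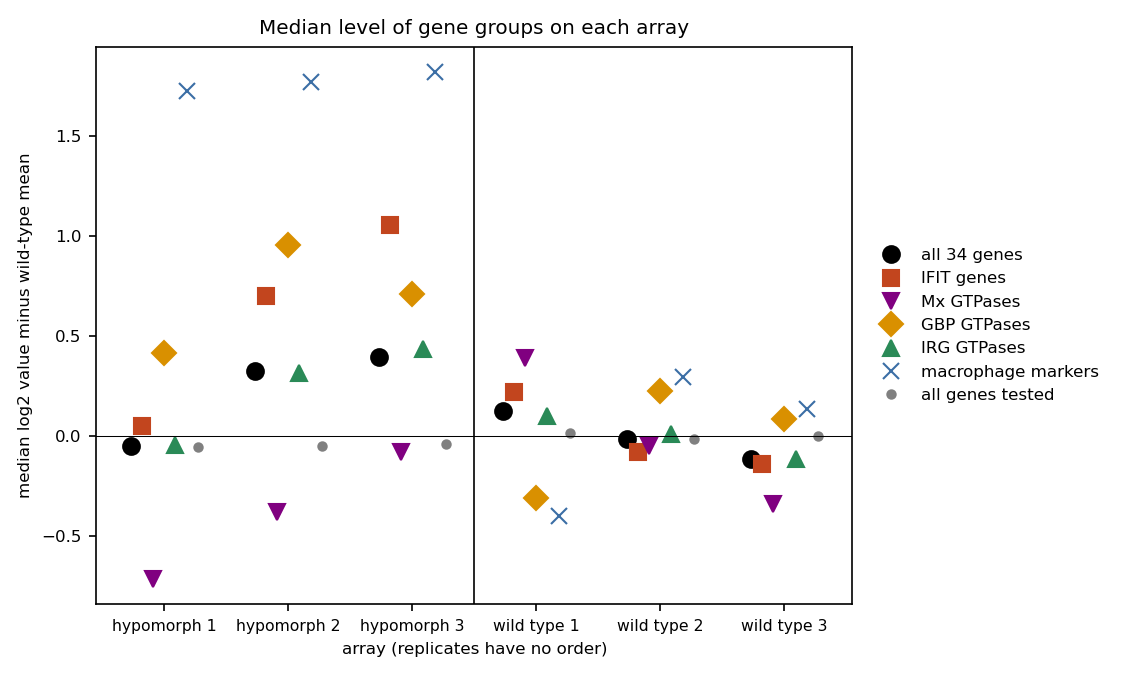
Median log2 value relative to the wild-type mean, by array, for all 34 genes, 4 of their families, the macrophage markers and all genes tested. The 34 genes lie at -0.05, 0.33 and 0.40 in the hypomorph arrays, where the macrophage markers lie between 1.73 and 1.82.

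The calls depended on which array was kept. Without hypomorph replicate 1, 8 of the 34 genes rose and 4.88% of all genes did; the added ones were Ifit2, Oasl2, Cmpk2 and Rtp4, and Ifi204, Gbp2, Ifit3 and Ifih1 stayed called. Without hypomorph replicate 2 or 3 only Ifih1 rose, while 4.91% and 4.44% of all genes did. Without wild-type replicate 1 the 4 risen genes were Gbp2, Ifi204, Ifih1 and Rsad2 (8.92% of all genes rose), and without wild-type replicate 2 they were Gbp2, Ifi204 and Ifih1 (9.55%). Without wild-type replicate 3 it was Ifih1 and Ifi204 that rose (8.0%), and Stat2 fell (6.49%). The call of Ifih1 held whichever single array was left out (adjusted p from 0.00558 to 0.0161). With a covariate for the poly-A spike-ins, whose signal does not overlap between the genotypes, limma called 0 genes of the list and 0 of the table (2 and 1149 at an unadjusted p under 0.05). The log2 change was then 0.56 for Ifi204, -0.0097 for Gbp2, 0.48 for Ifit3 and 0.76 for Ifih1 (adjusted p from 0.506 to 0.997), against 1.94, 0.83, 0.80 and 0.77 without it. Standard errors in that fit were 2.96 times as large in the median.

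The IFIT proteins bind viral RNA ends and block translation. Ifit3 was at 7.61, 8.14 and 8.47 in the hypomorph arrays, against 7.33, 7.26 and 7.24 in wild type. All 3 hypomorph values lay above all wild-type values, and the lowest was hypomorph replicate 1. It rose 1.74-fold (log2 change 0.80, SE 0.20, adjusted p = 0.0372), a call lost without any single array other than hypomorph replicate 1 (adjusted p from 0.0628 to 0.121). Ifit2 was at 7.29, 7.93 and 8.29 in the hypomorph and at 7.53, 7.13 and 7.04 in wild type. Its groups overlapped through hypomorph replicate 1, and the change of 0.60 did not pass (adjusted p = 0.151). Ifit1 had the same order of arrays, with a change of 0.42 (adjusted p = 0.19).

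Of the pair for the ubiquitin-like modifier ISG15, only Usp18, which encodes the protease that removes ISG15 and dampens the type I receptor, was measured. Its values were 7.93, 8.06 and 8.36 in the hypomorph and 8.11, 7.54 and 7.86 in wild type. The groups overlapped and the change of 0.28 did not pass (adjusted p = 0.292).

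The Mx GTPases, which block viral ribonucleoproteins, had lower means in the hypomorph, without passing. Common laboratory strains such as C57BL/6 carry a defective Mx1 allele. Mx1 was at 7.96, 8.19 and 8.48 in the hypomorph and 9.08, 8.55 and 8.37 in wild type (log2 change -0.46, 95% interval -0.95 to 0.03, adjusted p = 0.171). Mx2 was at 5.57, 6.00 and 6.31, against 6.65, 6.30 and 5.90 in wild type (-0.32, adjusted p = 0.398). For both genes the values of hypomorph replicate 1 lay below, and those of wild-type replicate 1 above, all other arrays.

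The OAS enzymes make the 2'-5' oligoadenylates that activate RNase L, and the OASL proteins are their relatives. Of the 5 measured, 0 met the limma threshold, and 0 had an unadjusted p below 0.05. Oasl2 was at 5.65, 6.38 and 6.75 in the hypomorph and 5.70, 5.91 and 5.84 in wild type (log2 change 0.44, adjusted p = 0.274), with hypomorph replicates 2 and 3 above and replicate 1 below all wild-type arrays. Oas1a was at 9.15, 9.49 and 9.75, against 9.38, 8.97 and 9.10 in wild type (0.31, adjusted p = 0.256). Oas2, Oas3 and Oasl1 had changes from -0.18 to 0.12.

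Among sensors of foreign nucleic acid, Ifih1, which encodes the double-stranded RNA receptor MDA5, rose in every hypomorph array. It was at 9.38, 9.39 and 9.59, against 8.72, 8.65 and 8.68 in wild type. The gap between the groups was wider than the range within either, and the 1.70-fold increase had the smallest adjusted p of the list (log2 change 0.77, 95% interval 0.57 to 0.97, adjusted p = 0.00257). Zbp1, the Z-nucleic acid sensor, was at 6.80, 7.34 and 7.20 in the hypomorph and 7.00, 6.71 and 6.96 in wild type (0.22, adjusted p = 0.365). Dhx58, which encodes the MDA5 co-sensor LGP2, had a log2 change of 0.06 (95% interval -0.36 to 0.47). Eif2ak2, which encodes the kinase PKR, had a change of 0.05 (95% interval -0.35 to 0.45). Dimmer probe sets changed by 0.52 and 0.08 for Dhx58 and by -0.29 for Eif2ak2, and none of them passed when all probe sets were tested. The difference between these changes and that of Ifih1 was not tested.

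Irf7, the factor that amplifies type I interferon production, was at 7.70, 8.01 and 8.27 in the hypomorph and 8.30, 7.87 and 7.68 in wild type, so the groups overlapped throughout (log2 change 0.04, 95% interval -0.43 to 0.50). Stat2, a transcription factor of type I interferon signalling, was at 6.31, 6.37 and 6.48 in the hypomorph and 7.05, 6.76 and 6.58 in wild type. All hypomorph arrays lay below all wild-type arrays, and the change of -0.41 missed the threshold (adjusted p = 0.0686). A second, dimmer Stat2 probe set had a change of 0.17 (adjusted p = 0.58).

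Of the 9 other antiviral effectors measured, 0 met the limma threshold, and 2 had an unadjusted p below 0.05. Rsad2, which encodes viperin, and its genomic neighbour Cmpk2 work in 1 pathway that makes a chain-terminating nucleotide. Rsad2 was at 9.35, 9.90 and 9.55 in the hypomorph and 9.40, 8.70 and 8.82 in wild type (log2 change 0.63, adjusted p = 0.0856), overlapping only through wild-type replicate 1. Its dimmer probe sets rose by 0.68 and 0.94 and passed when all probe sets were tested (adjusted p = 0.0412 and 0.0187). Cmpk2 was at 6.08, 6.94 and 6.83 in the hypomorph and 6.00, 5.98 and 6.01 in wild type (0.62, adjusted p = 0.0893). Its hypomorph arrays all lay above wild type, replicate 1 by a small margin.

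Rtp4, an interferon-induced chaperone gene, repeated the order of the IFIT genes, at 8.88, 9.51 and 9.90 in the hypomorph and 9.04, 8.88 and 8.68 in wild type (log2 change 0.57, adjusted p = 0.157). Bst2, which encodes tetherin and also marks mouse plasmacytoid dendritic cells, was at 8.98, 8.88 and 8.73, against 8.89, 8.54 and 7.95 in wild type (0.41, adjusted p = 0.254). It was the 1 gene of the list with hypomorph replicate 1 highest. Isg20, an RNA exonuclease gene, Parp14, Trim30a, Ifi27l2a and Ifi35 had changes from -0.11 to 0.18, and none of them passed. Second, dimmer probe sets changed by 0.32 for Trim30a, -0.14 for Cmpk2, -0.0037 for Rtp4, -0.042 for Zbp1 and 0.57 for Iigp1. None of these passed when all probe sets were tested (limma adjusted p from 0.058 to 0.991). That of Trim30a had the smallest adjusted p of them and no overlap between the groups.

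**Figure D5:**
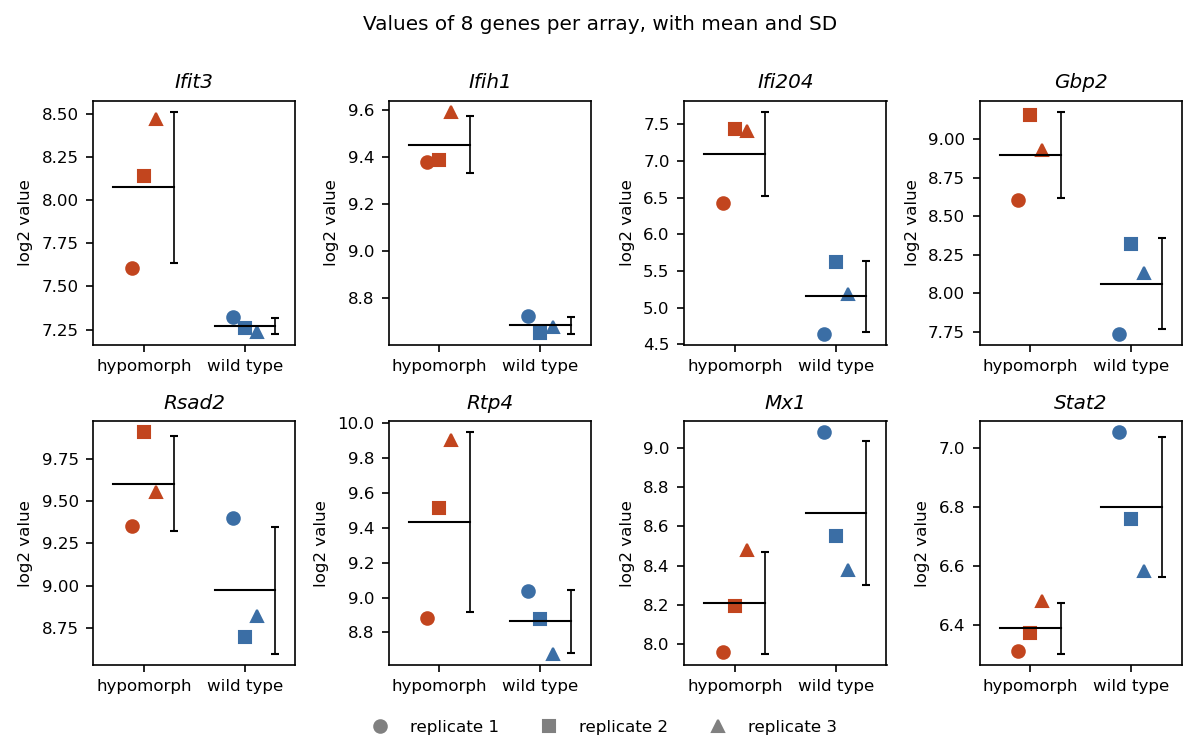
Log2 values of 8 genes on each array, hypomorph left and wild type right, with the mean (bar) and SD (n = 3 each) and a symbol for each replicate number. Ifit3, Ifih1, Ifi204 and Gbp2 have no overlap between the groups, Rsad2, Rtp4 and Mx1 overlap, and Stat2 lies lower in all 3 hypomorph arrays. Each panel has its own axis, which does not start at 0.

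Ifi204, the 1 measured gene of the p200 family of nucleic acid-binding proteins, had the largest change of the list. It was at 6.43, 7.44 and 7.40 in the hypomorph, against 4.64, 5.62 and 5.19 in wild type. Every hypomorph array was above every wild-type array. The increase was 3.84-fold (log2 change 1.94, SE 0.34, adjusted p = 0.0114), and without hypomorph replicate 2 or 3 it missed the threshold narrowly (adjusted p = 0.0506 and 0.0527). Within wild type Ifi204 was lowest in replicate 1, where the macrophage markers were also lowest, as were 34.3% of all genes. Within the hypomorph it was lower in replicate 1 than in replicates 2 and 3. The macrophage marker medians relative to wild type were 1.73, 1.77 and 1.82 in those 3 arrays. Macrophages are known to express Ifi204, and the part of the macrophage markers in this change was not tested. The rise was not seen in p200 genes measured outside the list. Mndal, Ifi209, Aim2 and the dim Ifi202b had log2 changes of -0.28, -0.12, -0.26 and 0.17, and none of them passed. The p200 genes are a family of close copies, and cross-hybridization between them was not tested.

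The IRG GTPases of mice divide into the regulators Irgm1, Irgm2 and Igtp, which sit on the cell's own membranes, and effectors such as Iigp1, Tgtp1 and Ifi47, which coat pathogen vacuoles. Of the 5 measured, 0 met the limma threshold (2 had an unadjusted p below 0.05), and all 5 changes were above 0, from 0.07 to 0.34. Irgm2 was at 7.84, 7.87 and 7.99 in the hypomorph, above 7.62, 7.75 and 7.30 in wild type (log2 change 0.34, 95% interval 0.04 to 0.64, adjusted p = 0.106). Ifi47 was at 9.05, 9.37 and 9.40, against 9.06, 8.91 and 8.88 (0.32, adjusted p = 0.0974), and overlapped through replicate 1 of both groups. Igtp and Irgm1 had changes of 0.09 and 0.07. Iigp1 had the widest wild-type range of the list, 1.10, with wild-type replicate 2 above all hypomorph arrays.

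The GBP GTPases bind vacuole membranes and bacterial surfaces. Gbp2 was at 8.60, 9.16 and 8.93 in the hypomorph, against 7.74, 8.32 and 8.13 in wild type. The groups did not overlap, and it rose 1.78-fold (log2 change 0.83, SE 0.19, adjusted p = 0.0269), a call that ended when wild-type replicate 3, hypomorph replicate 2 or hypomorph replicate 3 was left out (adjusted p = 0.0587, 0.0936 and 0.0931). The suffix of this probe set marks probes that may bind other transcripts as well, and a second Gbp2 probe set without that suffix rose by 0.58 (adjusted p = 0.0446 when all probe sets were tested). Gbp3 was at 8.50, 9.02 and 8.76, against 7.91, 8.40 and 8.31, also without overlap (0.55, adjusted p = 0.0702). In both genes replicate 2 was the highest and replicate 1 the lowest array of each genotype, unlike in Mx1, Ifit2 and Rtp4, where wild-type replicate 1 was the highest wild-type array.

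The rest of the interferon pathway was read from lists of ligands, receptors, signalling, sensing, feedback and other induced genes. Of 88 genes measured of 122 listed, 15 rose and 5 fell, with a median change of 0.01. Over all genes tested 9.76% rose and 8.47% fell, with a median of -0.05, and these shares are the background for each list below. Of the 10 interferon ligand genes, 0 met the limma threshold (1 had an unadjusted p below 0.05). Ifnb1 was at 3.13, 2.87 and 3.29 in the hypomorph and 2.96, 2.96 and 3.03 in wild type. Ifng was at 6.65, 6.31 and 6.02, inside the wild-type spread of 4.61, 6.50 and 7.32. For neither ligand was the difference larger than the spread between arrays (log2 changes 0.11 and 0.19, adjusted p = 0.531 and 0.863). The type I ligand genes were dim, between percentile 5.28 (Ifna11) and 34.9 (Ifnz) of all genes by mean level, with Ifnb1 at 10.4. At such levels a change can go undetected, so these values do not show whether the type I ligand genes differed.

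Of 5 receptor genes measured, 3 rose. Ifnar2, the high-affinity chain of the type I interferon receptor, rose 1.78-fold and was at 9.74, 9.65 and 9.71 in the hypomorph, against 8.74, 8.95 and 8.91 in wild type (adjusted p = 0.00192). Its partner Ifnar1 had a change of 0.01 (95% interval -0.23 to 0.25). For the interferon gamma receptor, Ifngr1, the ligand-binding chain, rose 1.37-fold (adjusted p = 0.0201) and Ifngr2 had a change of -0.02. Il10rb, a chain shared by the interferon lambda and interleukin 10 receptors, rose 1.76-fold (adjusted p = 0.00393). The calls of Ifnar2 and Il10rb held without any single array, and that of Ifngr1 ended when wild-type replicate 3, hypomorph replicate 1 or hypomorph replicate 3 was left out (adjusted p from 0.0552 to 0.0876). Among the hypomorph arrays, replicate 1 was the highest for the 3 receptor genes that rose, as it was for 42.2% of all genes and 1 of the 34.

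Of 9 kinase, STAT and IRF genes, 0 rose and 1 fell with limma (2 had an unadjusted p below 0.05). Irf3, which switches on Ifnb1 after viral sensing, fell to 8.75, 8.69 and 8.72 in the hypomorph, against 9.29, 9.16 and 9.02 in wild type (log2 change -0.44, adjusted p = 0.018), a call that ended without any single hypomorph array (adjusted p from 0.0608 to 0.0771). Irf9 and Irf1, both interferon-induced themselves, had changes of -0.16 and -0.14 and did not pass. Of 10 sensing genes 3 rose, namely the endosomal RNA receptor gene Tlr7 (2.58-fold), the RIG-I and MDA5 adaptor gene Mavs (1.65-fold) and Trim25, a ubiquitin ligase gene for RIG-I (log2 change 0.35). The call of Trim25 ended without wild-type replicate 3 or any single hypomorph array (adjusted p from 0.0553 to 0.113) and after quantile normalization (0.0627). The 1 feedback gene of 7 that rose was Socs3 (2.04-fold, adjusted p = 0.0475), which was at 7.08 in wild-type replicate 1 and at 8.17 and 8.11 in the other wild-type arrays, and whose call ended without wild-type replicate 3 or any single hypomorph array (adjusted p from 0.0583 to 0.15) and with limma's trend and robust options (0.074).

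Among 47 measured interferon-stimulated genes outside the 34, 8 rose and 4 fell. By smallest p the risen genes were Lgals3bp (2.85-fold), a secreted glycoprotein gene, Tor3a (1.74-fold), Ube2l6 (1.60-fold), the E2 enzyme gene of ISG15 conjugation, and Parp12 (1.73-fold). The fallen ones were Uba7, the E1 enzyme gene of the same conjugation (log2 change -0.53), Oas1b (-0.54), Ifitm1 (-0.60), an antiviral membrane protein gene, and Trim34a (-0.49). Each of the 4 decreases was lost without at least 3 of the single arrays, and that of Uba7 also with the mean of its probe sets (adjusted p = 0.0624). Lgals3bp and Parp12 had the order of the IFIT genes within the hypomorph, at 9.18, 9.38 and 9.52 for Lgals3bp and at 7.86, 8.13 and 8.37 for Parp12, and Parp12 missed the threshold without hypomorph replicate 2 (adjusted p = 0.0507).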

How the data were processed

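The deposited table holds 1 log2 value per probe set and array, made with Affymetrix Power Tools per the submitters' processing notes. Its version, the background correction and the summarization were not given in the sources used here. That the deposited values are log2 and were normalized between arrays was inferred from their range and their close array medians (5.65 to 5.71); such normalization hides differences in total RNA. Arrays have no read depth, so their number limits the precision.

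Of 22690 rows, 20379 name 1 gene through the platform annotation, and these cover 12393 genes. Hypomorph and wild type were set against each other in R 4.3.3 with limma 3.58.1 (lmFit, eBayes, two-sided, no covariate, no filter) over all 12393 genes on the 6 arrays, with Benjamini-Hochberg adjustment over all of them. limma was tested on simulated data. Python 3.11.15 with pandas 2.3.3 and matplotlib 3.10.9 made tables and plots. The 34 genes, the other lists and the tests were chosen with earlier results of these data known. A listed gene gets array values if it passed, or has 1 of the 2 largest changes of its role group; of the pathway lists, up to 4 genes of smallest p each way and a few fixed genes are named. Some other genes were named after their values were seen, among them Rtp4, Bst2, Iigp1 and the dendritic cell markers.

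Replicate numbers were checked as pairs: deviations from the group means correlated at 0.153, 0.011 and 0.106 for numbers 1, 2 and 3, so the numbers were not taken to pair arrays. Alternatives were the mean of probe sets, all probe sets, filters on dim genes, quantile normalization, median centring, trend and robust fitting, array weights, a replicate block, the poly-A spike-in signal as covariate, and leaving out each array. Promoter windows are from RefSeq (GRCm38.p6).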

Additional observations from a re-analysis of the deposited data

How the results depend on the processing

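The count of 4 risen genes of the 34 was 4 or 5 with the mean of probe sets, all probe sets, both filters on dim genes, quantile normalization, median centring, trend and robust fitting and the replicate block. Those fitted gene by gene called 6.08% to 21.1% of all genes risen. It was 7 with array weights (11.0%). With a covariate for the poly-A spike-ins, limma called 0 of them (2 higher at an unadjusted p under 0.05) and 0 of all genes (1149 at an unadjusted p under 0.05), with standard errors 2.96 times as large in the median. Leaving out 1 array gave 1 to 8 risen and 0 or 1 fallen, and 1, Stat2, fell with genes below the median level removed (18.2%). Of the 88 other pathway genes, 15 rose and 5 fell. Leaving out 1 array gave 8 to 17 and 0 to 5, where 4.44% to 9.55% of all genes rose and 1.55% to 8.78% fell. The fallen were 8 without genes below the median level (18.2% of the genes kept fell), 9 with trend and robust fitting (10.0%) and 1 with the replicate block (3.86%). With the spike-in covariate 0 rose and 0 fell with limma (9 and 1 at an unadjusted p under 0.05). The median change of the 34 stayed between 0.15 and 0.38 in every setting. The ISRE core was found for 20 genes and the GAS core for 7 in the window from 150 bases before to 50 after the start.

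With the spike-in covariate the sign turned for Mx1 (0.38), Mx2 (0.48), Oas3 (-0.19), Oasl1 (-0.71), Oasl2 (-0.35), Zbp1 (-0.064), Stat2 (0.24), Isg20 (0.78), Parp14 (0.082), Gbp2 (-0.0097), Gbp3 (-0.29), Ifng (-3.67), Ifngr2 (0.56), Irf9 (0.0195), Socs3 (-0.56) and Uba7 (0.12), with adjusted p from 0.495 to 0.997. It also turned for Eif2ak2 (-0.12) and Ifngr2 (0.071) with the mean of probe sets, for Irf7 (-0.011) and Ifnar1 (-0.028) after quantile normalization, and for Ifng (-0.43) with array weights. Leaving out 1 array gave changes of -0.40 to 0.0167 for Oas2, -0.096 to 0.19 for Oasl1, -0.039 to 0.22 for Dhx58, -0.10 to 0.22 for Eif2ak2, -0.10 to 0.21 for Irf7, -0.26 to 0.11 for Isg20, -0.0091 to 0.13 for Ifi35, -0.024 to 0.19 for Irgm1, -0.58 to 0.78 for Ifng, -0.041 to 0.097 for Ifnar1 and -0.11 to 0.079 for Ifngr2. The cause was not tested. The block by replicate number, which the correlations do not bear out, ended the calls of Ifit3 (adjusted p = 0.0643), Ifngr1, Irf3, Trim25, Socs3, Uba7, Oas1b and Trim34a and gave one for Gbp3 (adjusted p = 0.0294), with 753 genes rising and 478 falling in all. Not every array correlated best with its own number.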
